A study of Zea mays with 8 samples.

Results

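The carotenoid and abscisic acid synthesis genes of maize described here are 8, chosen by their gene IDs from the 39604 genes of the deposited table and not by their values. They are y1 (GRMZM2G300348), vp5 (GRMZM2G410515), vp9 (GRMZM2G454952), lcyE (GRMZM2G012966), crtRB1 (GRMZM2G152135), zep1 (GRMZM2G127139), vp14 (GRMZM2G014392) and ccd1 (GRMZM2G057243). Their RNA was measured in anthers, in which the tassel makes its pollen, from Zea mays plants grown in the field. The plants were wild type (WT) or homozygous for the hda108 mutation (hda108/hda108), and anthers were taken at a post-meiotic and at a mitotic stage. Below, the words after meiosis mean the post-meiotic group only. The order of the 2 stages is not assumed, and the mitotic stage may also lie after meiosis. HDA108 encodes a histone deacetylase, an enzyme that removes acetyl groups from histones. Each of the 4 groups had 2 libraries, and each library came from anthers pooled over 3 tassels. The table holds 1 FPKM per gene and group (mapped fragments scaled to transcript length and library size), so no spread between replicates could be computed and no test was possible. All differences below describe 4 values per gene, and neighbours in an order of levels cannot be said to differ.

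Carotenoids are made in plastids. Phytoene synthase joins precursors into phytoene, desaturases turn it into lycopene, and cyclases split the path into branches with beta rings only or with an epsilon ring. Hydroxylation of beta-carotene gives zeaxanthin, epoxidation gives violaxanthin, and cleavage of 9-cis-epoxycarotenoids is the step that commits the pathway to abscisic acid, a hormone of seed dormancy and water stress. In maize, mutants of y1 have white endosperm, and vp5, vp9 and vp14 are viviparous loci, whose mutant seeds germinate on the ear for lack of abscisic acid. Carotenoids and abscisic acid themselves were not measured here.

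The words higher and lower are used with a count only for genes past a 4-fold rule, a difference of 2 or more in log2(FPKM + 1). The rule was applied to the 24360 genes that reached 1 FPKM in any group, which include all 8. The summed FPKM of all genes differed between groups, at 1069800 and 701133 in WT and hda108 after meiosis, and at 1284185 and 505427 at the mitotic stage. With every group rescaled to a sum of 1000000, the median genotype difference went from -0.03 to 0.50 log2 in post-meiotic and from -0.02 to 1.03 log2 in mitotic anthers. Each median was taken over the genes that reached 1 in any group on its own scale. HDA108 itself (GRMZM2G136067) had 12.3 FPKM in WT and 4.10 in hda108 post-meiotic anthers, and 6.43 and 4.30 at the mitotic stage. Pollen genes were abundant in all groups. Of 5 listed tapetum markers, not each specific to that layer, ms23, ms26 and ms32 were above 1 FPKM in every group. ms8 was so only in hda108 post-meiotic anthers, and ocl4 in none.

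As deposited, the 8 genes fell into a flat set and a variable set. For y1, vp5, vp9, zep1 and ccd1 the highest of the 4 group values was between 1.31 and 2.13 times the lowest. For lcyE, crtRB1 and vp14 it was 61.5, 46.5 and 26.6 times the lowest, and for each of these 3 genes both hda108 values were below the WT value of the same stage. The flat set depends on the scaling: with the groups rescaled to equal sums its 5 genes spanned 3.16-fold to 5.41-fold, against 10.5-fold to 33.6-fold for the other 3.

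**Figure D1:**
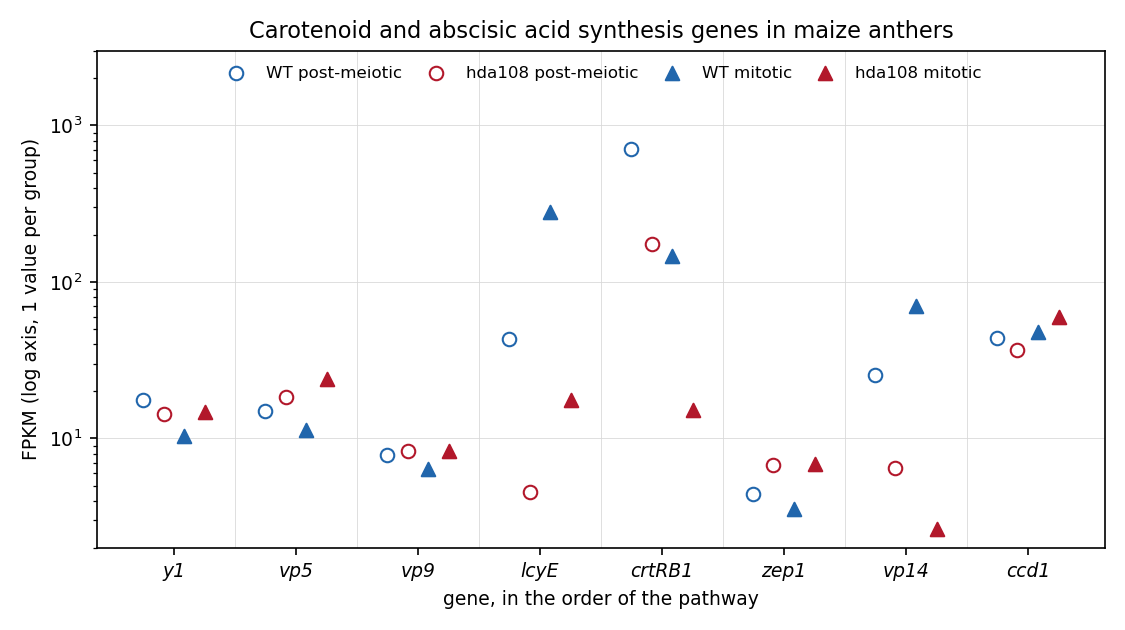
FPKM (log axis) of the 8 genes, with 1 point per group; open circles are post-meiotic and filled triangles mitotic anthers, blue is WT and red hda108. The 4 points of y1, vp5, vp9, zep1 and ccd1 lie close together, while those of lcyE, crtRB1 and vp14 spread over more than 1 unit of log10.

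The entry steps come first. y1 encodes phytoene synthase 1, which makes the first carotenoid (chromosome 6, 82180485 to 82184345, B73 RefGen_v3, as all positions here). It had 17.6 FPKM in WT and 14.3 in hda108 post-meiotic anthers, and 10.3 in WT and 14.7 in hda108 mitotic anthers. The highest value was in WT after meiosis and the lowest in WT at the mitotic stage, with both hda108 values between them.

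vp5 encodes phytoene desaturase (chromosome 1, 17660121 to 17666235). Its values were 14.97 FPKM in WT and 18.3 in hda108 after meiosis, and 11.3 and 24.0 at the mitotic stage. Both hda108 values stood above both WT values. The mitotic genotype difference, 2.13-fold or 1.03 log2, was the largest of the 5 flat genes and did not reach the 4-fold rule.

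vp9 encodes zeta-carotene desaturase (chromosome 7, 17481577 to 17490013) and had the narrowest range of the 8 as deposited. It had 7.86 and 8.32 FPKM in WT and hda108 after meiosis, and 6.35 and 8.31 at the mitotic stage. The hda108 values at the 2 stages were nearly the same, and all 4 lay within 1.31-fold. Rescaled to equal sums, they spanned 3.33-fold.

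The table of RefSeq genes gives the IDs of vp5 and vp9 also to a neighbouring gene each, but both neighbours have rows of their own. GRMZM5G815358, next to vp5, had 23.9 and 25.3 FPKM after meiosis and 35.1 and 57.5 at the mitotic stage in WT and hda108. GRMZM2G454928, next to vp9, had 2.60, 1.97, 2.61 and 1.62 FPKM in the same order of groups. Neither neighbour differed between the genotypes by the 4-fold rule.

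lcyE encodes lycopene epsilon cyclase, which starts the branch to lutein (chromosome 8, 138416902 to 138424121). Its row had 43.0 FPKM in WT and 4.57 in hda108 post-meiotic anthers, and 281 in WT and 17.6 in hda108 mitotic anthers. The highest value by far was in WT mitotic anthers, and both hda108 values were below both WT values. In hda108 the row was 9.42-fold lower after meiosis (-2.98 log2) and 15.9-fold lower at the mitotic stage (-3.92 log2).

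The identity of this row is uncertain. It spans 7220 bp, and the RefSeq table gives its ID both to lcyE and to an adjacent gene with no name beyond LOC100216601, with no second row for that neighbour. The fragments of the 2 genes therefore cannot be told apart, and the values of the row need not be those of the cyclase.

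crtRB1 encodes a beta-carotene hydroxylase, also named HYD3, which turns beta-carotene into zeaxanthin (chromosome 10, 136081566 to 136084686). It had 704 FPKM in WT and 175 in hda108 post-meiotic anthers, and 146 in WT and 15.1 in hda108 mitotic anthers. The order ran from WT post-meiotic at the top to hda108 mitotic at the bottom, with the other 2 groups close to each other. In hda108 the gene was 4.02-fold lower after meiosis (-2.001 log2, at the edge of the rule) and 9.67-fold lower at the mitotic stage (-3.19 log2).

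zep1 encodes a zeaxanthin epoxidase, which acts on the product of the hydroxylase (chromosome 2, 45068943 to 45077882). Its values were 4.40 and 6.80 FPKM in WT and hda108 after meiosis, and 3.55 and 6.85 at the mitotic stage. Both hda108 values were above both WT values, by 1.55-fold and 1.93-fold within a stage, short of the 4-fold rule. In both WT groups it was the least abundant of the 8 genes.

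vp14 encodes a 9-cis-epoxycarotenoid dioxygenase, the enzyme of the committed cleavage (chromosome 1, 250953387 to 250956063). It had 25.4 FPKM in WT and 6.49 in hda108 post-meiotic anthers, and 70.1 in WT and 2.63 in hda108 mitotic anthers. Both WT values were above both hda108 values, and the extremes of the gene were the WT and hda108 mitotic anthers. In hda108 it was 26.6-fold lower at the mitotic stage (-4.29 log2). After meiosis it was 3.91-fold lower, a difference of -1.82 log2 that did not reach the rule.

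ccd1 encodes another carotenoid cleavage dioxygenase, which cuts many carotenoids into volatile apocarotenoids and makes no abscisic acid precursor (chromosome 9, 152353212 to 152359196). It had 44.0 FPKM in WT and 36.7 in hda108 post-meiotic anthers, and 47.9 in WT and 59.6 in hda108 mitotic anthers. The 4 values lay within 1.62-fold, and the genotypes stood in opposite orders at the 2 stages. The RefSeq entry also carries the name wc1, a locus at which this gene is repeated in some maize lines, and its copy number in these plants was not known.

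The first comparison set hda108 against WT after meiosis. lcyE and crtRB1, 2 of 8, were lower by the 4-fold rule and 0 were higher, against 4.47% of all tested genes lower and 1.68% higher. The median difference of the 8 was -0.26 log2, against -0.03 for all tested genes. With each group rescaled to the same sum, lcyE alone remained lower at -2.45 log2, and crtRB1 was at -1.39. Of the 25286 genes that reached 1 in any group on the rescaled values, 3.25% were higher and 2.62% lower.

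At the mitotic stage, lcyE, crtRB1 and vp14, 3 of 8, were lower and 0 were higher, against 8.12% of all tested genes lower and 1.52% higher. The other 5 genes were all above WT, which put the median of the 8 at 0.33 log2, against -0.02 for all tested genes. Rescaled, lcyE at -2.62 and vp14 at -3.16 log2 passed the rule, crtRB1 at -1.89 did not, and vp5 was higher at 2.31. On that scale 13.2% of all genes were higher and 2.38% lower.

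Lower calls were more frequent among abundant genes. Of the 1388 genes with a mean of 100 to 1000 FPKM over the groups, the range that holds crtRB1 at 260, 25.1% were lower in hda108 after meiosis and 34.4% at the mitotic stage. Of the 9609 genes with a mean of 10 to 100 FPKM, which include lcyE at 86.5 and vp14 at 26.1, the shares were 5.22% and 10.7%.

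Many pollen marker genes were also lower in hda108. Of 14, matched by symbol and not each specific to pollen, 9 were lower after meiosis and 6 at the mitotic stage, with 0 higher, against 4.47% and 8.12% of all tested genes lower. Of the 14, 12 had a mean of at least 100 FPKM. Lower calls were more frequent among all genes at 100 to 1000 FPKM. For the 5 markers with a mean of at least 1000 FPKM, no share of that range was computed. abp3, pro4 and pro5 lay within 0.30 log2 of WT at both stages. The summed level of all 14 markers was 18506 FPKM in WT and 4124 in hda108 after meiosis, and 27469 and 5234 at the mitotic stage. It was 4.49-fold and 5.25-fold lower, or 2.94-fold and 2.07-fold with the groups rescaled to equal sums. No pollen marker was listed at 0 in any group. In whole anthers, fewer cells of a type and less RNA per cell cannot be told apart, and the part of pollen in the values of lcyE, crtRB1 and vp14 was not tested. The tapetum is the layer that feeds the pollen. Its 5 listed markers, matched by symbol and not each specific to it, summed to 138 FPKM in WT and 85.2 in hda108 after meiosis. At the mitotic stage the sum was 88.0 and 55.9. The mitotic order of that sum turned when rescaled, to 68.5 and 111. As deposited, ms8 was higher in hda108 after meiosis by the rule, at 2.32 log2, against 1.68% of all tested genes higher. ms23 was lower at the mitotic stage, at -2.62, against 8.12% of all tested genes lower. Single tapetum markers were not rescaled. The 3 green tissue markers, relevant because leaves also make carotenoids, summed to 210 and 395 FPKM after meiosis and 61.3 and 110 at the mitotic stage in WT and hda108. With the groups rescaled to equal sums, these sums were 196 and 564 after meiosis and 47.7 and 218 at the mitotic stage. As deposited, none of the 3 passed the rule between genotypes, and single markers of this list were not rescaled. All 3 were above WT after meiosis on the deposited scale. At the mitotic stage rca1 carried the deposited sum, rbcS-m3 had 17.1 and 19.2 FPKM, and cab48 was below WT.

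Ratios between genes of 1 group do not depend on the scaling of one group against another. The geometric mean of the 3 entry genes y1, vp5 and vp9 was 12.7 FPKM in WT and 12.97 in hda108 after meiosis, and 9.04 and 14.3 at the mitotic stage. Relative to that mean, vp14 stood at 1.99 in WT and 0.501 in hda108 after meiosis, and at 7.75 and 0.184 at the mitotic stage, 3.98-fold and 42.1-fold lower in the mutant. crtRB1 stood at 55.3 and 13.5 after meiosis and at 16.2 and 1.06 at the mitotic stage, 4.09-fold and 15.3-fold lower. The lcyE row was 9.58-fold and 25.2-fold lower on this measure. ccd1 was lower by 1.22-fold and 1.27-fold, and zep1 stood higher in hda108 at both stages, at 0.524 against 0.345 and 0.479 against 0.393.

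**Figure D2:**
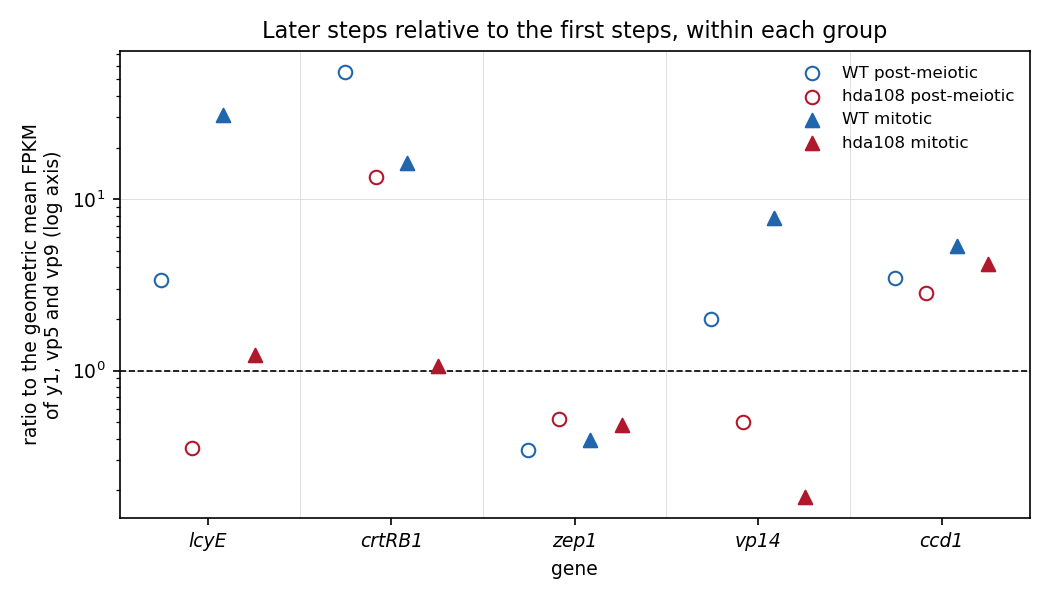
Ratio of 5 later genes to the geometric mean FPKM of y1, vp5 and vp9 in the same group (log axis, 1 point per group, dashed line at 1). Within each stage the red hda108 points of lcyE, crtRB1 and vp14 lie below the blue WT points, down to 0.184 for vp14, while zep1 and ccd1 stay within a narrow band.

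The 2 cleavage genes diverged in level. vp14 had 0.577 times the FPKM of ccd1 in WT and 0.177 times in hda108 post-meiotic anthers. At the mitotic stage the ratio was 1.46 in WT and 0.0441 in hda108. vp14 was thus more abundant than ccd1 in WT mitotic anthers and in none of the other 3 groups.

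The order of the 8 genes by level also differed between groups. crtRB1 was the most abundant after meiosis in both genotypes, with 81.8% of the summed FPKM of the 8 in WT and 64.7% in hda108. In WT mitotic anthers the lcyE row led with 48.7% and crtRB1 followed with 25.4%. In hda108 mitotic anthers ccd1 led with 40.0%, vp5 was the second with 16.1%, and vp14 was the lowest with 1.77%. The summed FPKM of the 8 was 861 in WT and 271 in hda108 after meiosis, and 577 and 149 at the mitotic stage.

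**Figure D3:**
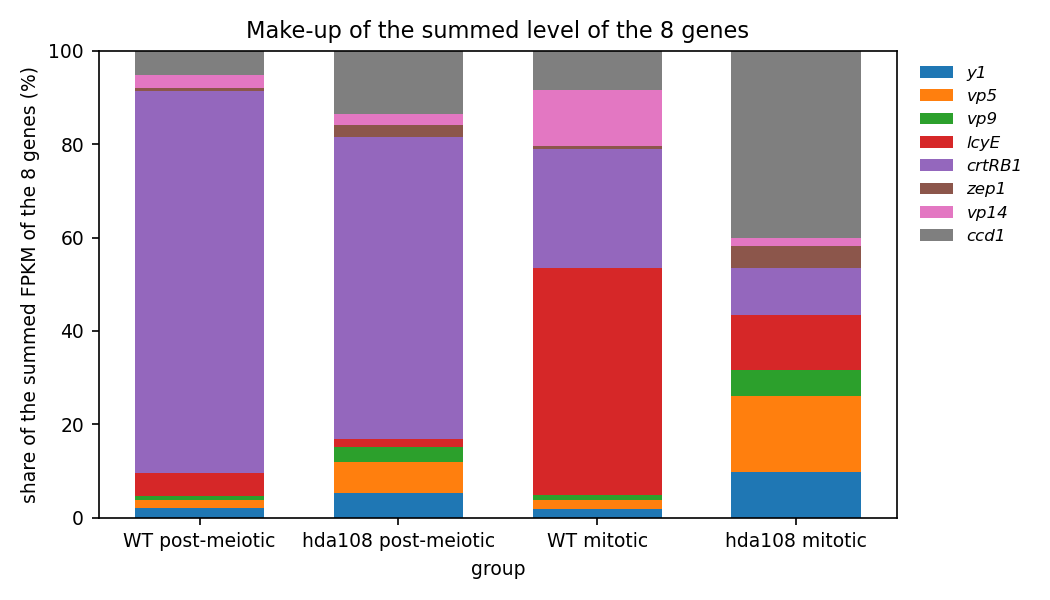
Share of each gene in the summed FPKM of the 8 genes, with 1 bar per group. crtRB1 makes up most of both post-meiotic bars, the lcyE row is the largest part of WT mitotic anthers at 48.7% and ccd1 of hda108 mitotic anthers at 40.0%.

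Ranks among all tested genes are also free of that scaling. crtRB1 lay above 99.2% of the tested genes in WT and 97.5% in hda108 after meiosis, and above 94.8% in WT and 72.1% in hda108 at the mitotic stage. The lcyE row lay above 84.0%, 33.3%, 97.1% and 76.1% of genes in that order of groups. vp14 lay above 74.9%, 42.1%, 89.9% and 28.4%. The ranks of the 5 flat genes moved less but were not constant. ccd1 lay above 84.4% to 94.1% of genes, vp5 above 61.9% to 82.4%, zep1 above 32.7% to 50.3%, y1 above 59.9% to 71.2% and vp9 above 46.3% to 55.7%.

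The stage comparison in WT, which uses the same WT values as the genotype comparisons, gave opposite directions for 2 genes. The lcyE row was 6.53-fold higher at the mitotic stage (2.68 log2) and crtRB1 4.81-fold lower (-2.26 log2). These were 1 higher and 1 lower of 8, against 1.35% of all tested genes higher and 1.46% lower. vp14 was 2.76-fold higher at 1.43 log2, short of the rule. y1 was 1.70-fold lower, and vp5, vp9, zep1 and ccd1 lay within 1.33-fold of their post-meiotic value. With the groups scaled by their median ratio, crtRB1 was at -1.80 log2 and did not reach the rule.

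In hda108, crtRB1 was 11.6-fold lower at the mitotic stage (-3.45 log2). It was the only 1 of 8 past the rule, against 2.94% of all tested genes lower and 1.02% higher. The lcyE row was 3.86-fold higher at 1.74 log2, and it passed the rule under each of the other 3 scalings, at 2.25 when rescaled to equal sums, 2.10 with median ratios and 2.26 with quantile normalization. vp14 was 2.47-fold lower at -1.05 log2, where it had been above its post-meiotic value in WT. ccd1 was 1.62-fold and vp5 1.31-fold higher, and y1, vp9 and zep1 were within 1.02-fold of their post-meiotic values.

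The last comparison set the genotype difference at the mitotic stage against that after meiosis. vp14 was the 1 gene of the 8 past the rule, at -2.48 log2, against 2.03% of all tested genes below -2 and 0.423% above 2. With each group rescaled to the same sum the value was -1.89, short of the rule. The lcyE row stood at -0.94 and crtRB1 at -1.19 log2, and the 5 flat genes were all between 0.26 and 0.75. y1 and ccd1 were below WT after meiosis, at -0.27 and -0.25 log2, and above WT at the mitotic stage, at 0.47 and 0.31. When rescaled to equal sums both were above WT at both stages.

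**Figure D4:**
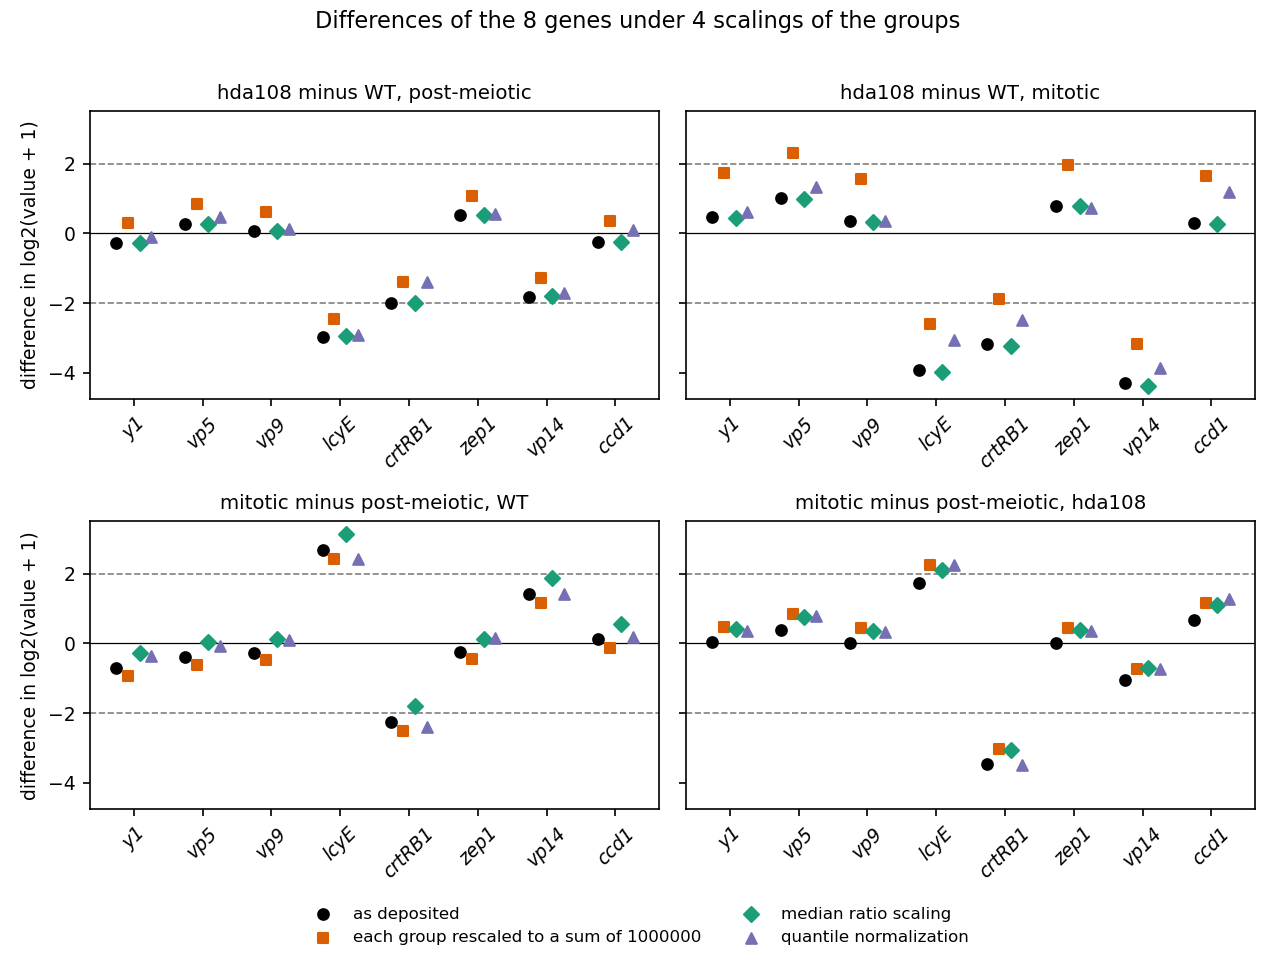
Differences in log2(value + 1) of the 8 genes in the 4 comparisons, as deposited and under 3 other scalings; dashed lines mark the 4-fold rule at -2 and 2. lcyE, crtRB1 and vp14 lie below 0 in both genotype panels under all 4 scalings, while the values of the 5 flat genes depend on the scaling, reaching 2.31 for vp5 when rescaled to equal sums.

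Other genes of the pathway were taken from lists of gene symbols. Upstream of y1, the 4 matched genes of the plastid isoprenoid precursor pathway were split between directions. dxs1 encodes 1-deoxyxylulose phosphate synthase, the entry enzyme of that pathway. It had 321 and 164 FPKM in WT and hda108 after meiosis and 70.0 and 18.3 at the mitotic stage, with a mitotic genotype difference of -1.88 log2. dxr encodes the reductoisomerase that follows it. It had 2.04 and 4.64 FPKM after meiosis and 1.84 and 12.2 at the mitotic stage, which made it the 1 gene of the list past the rule in a genotype comparison, at 2.22 log2, against 1.52% of all tested genes higher. lw1, which encodes the last reductase of the pathway, stood above WT at both stages, at 0.56 and 1.64 log2. These values are as deposited. The 4 genes summed to 88.3 FPKM in WT and 68.2 in hda108 at the mitotic stage. That order turned with the groups rescaled to equal sums, to 68.7 and 135.

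Of 4 other carotenoid synthesis genes, 1 was lower in hda108 at the mitotic stage by the rule and 0 after meiosis, against 8.12% and 4.47% of all tested genes. This was HYD1 (GRMZM2G164318), a paralog of crtRB1, with 6.00 and 2.24 FPKM in WT and hda108 after meiosis and 5.75 and 0.515 at the mitotic stage, or -2.16 log2. psy2, the paralog of y1, had 17.7 and 6.18 FPKM after meiosis and 10.2 and 2.26 at the mitotic stage. Its differences of -1.38 and -1.78 log2 did not reach the rule, while y1 was at -0.27 and 0.47. In WT the 2 phytoene synthase genes had nearly equal levels at both stages, and in hda108 y1 was the more abundant. The carotenoid isomerase genes crtiso1 and crtiso2 had between 0.872 and 3.43 FPKM in all groups and lay within 0.36 log2 of WT. These values are as deposited, and the single genes were not rescaled. The summed FPKM of the 4 was 2.21-fold and 2.60-fold lower in hda108 after meiosis and at the mitotic stage. With the groups rescaled to equal sums it was 1.45-fold and 1.02-fold lower.

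Downstream of vp14, 3 late abscisic acid synthesis genes were matched and 0 passed the rule in any comparison. The aldehyde oxidase genes AO1 and AO2, of the enzyme family that makes the last step, had at most 6.32 and 2.11 FPKM. vp15, of molybdenum cofactor synthesis, had 6.93 and 5.29 FPKM after meiosis and 8.21 and 3.38 at the mitotic stage in WT and hda108. The other cleavage genes ccd7 and ccd8, which act in strigolactone synthesis, were below 1 FPKM in all groups and were not tested. The list of abscisic acid breakdown genes matched 0 rows by symbol and was not analysed here.

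**Figure D5:**
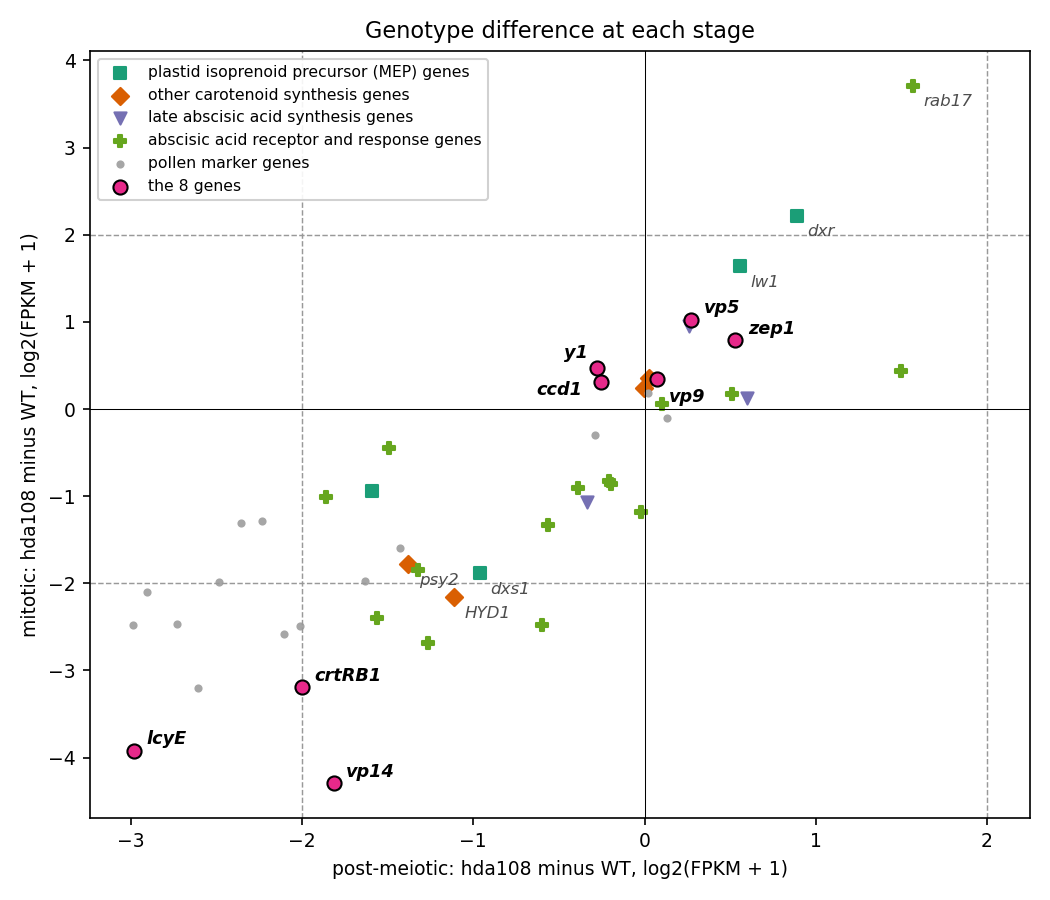
Genotype difference in log2(FPKM + 1) after meiosis (horizontal) and at the mitotic stage (vertical), with 1 point per gene; dashed lines mark the 4-fold rule. lcyE, crtRB1 and vp14 lie at the lower left with many pollen markers, the 5 flat genes lie near the centre, and dxr and rab17 lie above 2 on the vertical axis.

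The closeness of patterns was measured as the largest gap, over the 4 groups, between log2(FPKM + 1) values centred on each gene's mean. Among the other 7 genes and 11 tested synthesis genes of the lists, a choice made after the values were seen, dxs1 was nearest to crtRB1 with a gap of 0.76 log2. vp14 was the nearest to lcyE, at a gap of 1.59, and HYD1 to vp14, at 1.45. Among named genes of the whole table, the nearest to the lcyE row, which had the widest range of the 8 at 5.66 log2, were ysl17 at 0.37, psk1 at 0.38 and CK3 at 0.39. In all, 42 genes lay within 0.5 log2 of it. For vp9, with the narrowest range at 0.34 log2, the nearest were BSD6, ACK2 and HDZIV8_OCL8, and 10113 genes lay within 0.5 log2.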

How the data were processed

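Libraries were strand-specific, from total RNA without ribosomal RNA, and sequenced on a HiSeq2500, per the labels' protocols. Per the submitters' processing notes, the build was B73 RefGen_v3 and the tools included Cuffdiff 2.2.1, Cufflinks, SAMtools, TopHat2 2.0.13, Trimmomatic 0.33 and CASAVA 1.8. The authors deposited FPKM, with 1 column per group in the file header; neither the combining of replicates nor the scaling of groups is stated in the sources used. The 2 homozygous columns were read as hda108, the only mutant genotype of the labels.

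Depth is unknown: among 825 genes below 0.3 FPKM in all groups, ratios between groups had no common step (at most 4.73% in any bin of 0.1 log2). limma was planned for values per library and was not run.

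Differences are hda108 minus WT and mitotic minus post-meiotic in log2(FPKM + 1), a scale that understates changes of low genes; folds are ratios of FPKM. Other settings were rescaled sums, median ratios, quantile normalization, a pseudocount of 0.1, a 2-fold rule, and no filter or 5 FPKM. The median-ratio factors came from genes above 0 in all groups.

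Gene names came from RefSeq (assembly Zm-B73-REFERENCE-NAM-5.0), whose table matched 19060 of 39604 IDs and all 8 genes; zep1 is named by its ID alone. Lists were matched by symbol, since that table holds no product names; PYL genes and HYD1 were then added, and genes sharing only a symbol or a RefSeq entry were dropped. The genes and lists were chosen with earlier results of these data known. Named genes were all 8, HDA108, list genes past the rule (up to 6 per list, else the most abundant) and the 3 named genes nearest in pattern to the widest and the narrowest of the 8; any other list gene named was chosen with its values in view. No sequences are shown, as the reference used here held none. Python 3.11.15, numpy 2.4.6, pandas 2.3.3 and matplotlib 3.10.9 were used, and the calculations were tested on simulated data.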

Additional observations from a re-analysis of the deposited data

How the results depend on the processing

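No paired analysis was possible because the table holds 1 value per gene and group, and for the same reason no replicate could be left out. Of the 8 genes as deposited, 2 were lower after meiosis, 3 lower at the mitotic stage, 1 higher and 1 lower between stages in WT, 1 lower between stages in hda108, and 1 lower in the difference of genotype differences. Rescaling to equal sums gave 1 lower after meiosis, 2 lower and 1 higher at the mitotic stage, 1 higher between stages in hda108 and 0 lower in the last comparison. Median ratios gave 1 lower after meiosis, with crtRB1 at -1.999 log2, just short of the rule. They also gave 0 lower between stages in WT and 1 higher in hda108. Quantile normalization gave 1 lower after meiosis, with crtRB1 at -1.40, and 1 higher between stages in hda108. The 2-fold rule gave 3 lower after meiosis, 1 higher at the mitotic stage, 2 higher between stages in WT, 1 higher and 2 lower in hda108, and 2 lower in the last comparison. A pseudocount of 0.1 changed none of these counts. Removing the filter or setting it at 5 FPKM could not change them, since each of the 8 genes reached 5 FPKM in some group. Of 280 single values under these settings, 252 kept their direction and their side of the rule. Of these, 40 with no filter and 40 with the 5 FPKM filter were unchanged by design, and the 2-fold rule could not change a direction. Rescaled sums, median ratios and quantile normalization kept 31, 33 and 34 of 40. Of the values not kept, 6 no longer reached the rule, 10 newly reached it, and 12 small values changed sign with none past the rule. The cause was not tested. With no counts and no spread between libraries, small differences such as those of y1, vp9 and ccd1 cannot be told from noise.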

Other observations

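Genes that sense or respond to abscisic acid were also read from the table. Of 18 matched genes, 15 were tested. After meiosis 0 passed the 4-fold rule in hda108, and at the mitotic stage 3 were lower and 1 was higher, against 8.12% and 1.52% of all tested genes. Their median genotype difference was -0.39 log2 in post-meiotic and -0.91 log2 in mitotic anthers, where all tested genes had -0.03 and -0.02. These calls and medians, and the values below, are as deposited. The summed FPKM of the 18 matched genes was 1.75-fold and 3.79-fold lower in hda108, or 1.15-fold and 1.49-fold with the groups rescaled to equal sums. Single genes of this list were not rescaled. On that scale the mitotic median over the genes that reached 1 in any group went from -0.02 to 1.03 log2.

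The higher gene was rab17, a dehydrin gene known for its induction by abscisic acid, with 4.24 and 14.5 FPKM in WT and hda108 after meiosis and 1.99 and 38.2 at the mitotic stage. It thus stood 3.71 log2 above WT in the group where vp14 was lowest. Another dehydrin gene, dhn2 (GRMZM2G373522), went the other way, with 1891 and 787 FPKM after meiosis and 3025 and 471 at the mitotic stage, or -2.68 log2. The receptor gene PYL6 (GRMZM2G141382) had 201 and 67.4 FPKM after meiosis and 205 and 38.2 at the mitotic stage, or -2.39 log2. Of all genes with a mean of 100 to 1000 FPKM, a range that holds PYL6, 34.4% were lower at the mitotic stage. The mean of dhn2 lay above that range, where no share was computed. A second receptor gene, GRMZM2G047677, named both PYL3 and PYL4, had 40.3 and 26.3 FPKM after meiosis and 25.8 and 3.79 at the mitotic stage, or -2.48 log2. vp1, the regulator through which seeds respond to the hormone, was below 1 FPKM in all groups.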
